A study of Mus musculus with 2084 samples.

Results

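The genes described here are 34 genes of fatty acid oxidation and ketone metabolism in the mouse, taken by name as a fixed list. The list was chosen with earlier results of these data known. Shares and medians of members set beside those of all genes are therefore descriptive. Each of the 34 had a row in the deposited count table, which held 35606 gene identifiers. By role the list holds 4 acyl-CoA synthetases, 5 genes of the carnitine shuttle, 9 of mitochondrial beta-oxidation, 6 of auxiliary steps and electron transfer, 4 of peroxisomal beta-oxidation, 2 of ketone and acetoacetyl-CoA metabolism, 2 nuclear receptors and 2 fatty acid binding proteins. Levels are given across labelled cell types, brain regions, genotypes and days after ischemia.

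RNA was read by Smart-seq3, a full-length single-cell method, in cells sorted from the adult mouse ventricular-subventricular zone (vSVZ, the stem cell niche along the lateral ventricle), striatum, olfactory bulb and cortex. The count table used here held 1981 of the 2084 cells with a label, under 11 replicate letters that each stand for 1 or more mice. Naive WT cells, from mice without tamoxifen or ischemia, came from letters pA to pE, with olfactory bulb and late migratory stream cells in pF. Naive WT (TCF-Lef reporter) cells of the cortex and striatum came from pL. TiCY mice, in which tamoxifen given at 2 months of age switches on eYFP in vSVZ cells that express Tlx (Nr2e1), gave naive cells (pM), cells taken 2 d after ischemia (pI) and cells taken 21 d after it (pH). Ischemia was a block of both carotid arteries, made 2 weeks after tamoxifen. Letter pJ held naive IFN(A/G)R KO cells, an interferon receptor knockout, and TiCY-IFN(A/G)R KO cells of 2 d after ischemia. Sorting used surface markers such as GLAST, PSA-NCAM, Prominin1, CD9 and O4, on plates filled from 1 mouse or from a pool. The labels do not say whether the naive knockout mice also carried TiCY or received tamoxifen. In the GLAST sorts, Ifngr1 lay at 0.0981 to 2.14 CPM in the knockout arms and 9.02 to 34.2 in the TiCY arms, and Ifnar1 at 8.90 to 21.4 against 33.0 to 84.7. The labels do not say which part of either gene was deleted.

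Fatty acids enter oxidation as acyl-CoA esters, which long-chain acyl-CoA synthetases make. Carnitine palmitoyltransferase 1 loads them onto carnitine for entry into mitochondria, where each turn of beta-oxidation runs through a dehydrogenase, a hydratase, a second dehydrogenase and a thiolase, and very long or branched chains are shortened in peroxisomes. Electrons leave through the electron transfer flavoprotein, and the acetyl-CoA formed can become ketone bodies. Astrocytes are held to be the main fatty acid oxidising cells of the brain, and quiescent neural stem cells (NSCs), which resemble them, depend on this pathway more than their dividing progeny do. Ppara is the nuclear receptor that switches on many of these genes in liver.

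Promoter sequences are shown for 4 members on which the results below turn, as RefSeq gives them for GRCm38.p6: Acsl3 and Ppara, called lower in neuroblasts and after ischemia; Hadhb, whose GENCODE gene record is separated by 85 bases from that of Hadha on the opposite strand; and Fabp7, whose pattern differed from the others. Each window runs from 250 bases before the RefSeq start to 50 after it. All 4 are on the + strand. Capitals mark the GC box, GGGCGG or its reverse complement, in the first 3, and the nuclear receptor half-site, AGGTCA or its reverse complement, in Fabp7. The windows are chr1:78657575-78657874 for Acsl3, chr15:85735526-85735825 for Ppara, chr5:30155003-30155302 for Hadhb and chr10:57784673-57784972 for Fabp7.
Acsl3: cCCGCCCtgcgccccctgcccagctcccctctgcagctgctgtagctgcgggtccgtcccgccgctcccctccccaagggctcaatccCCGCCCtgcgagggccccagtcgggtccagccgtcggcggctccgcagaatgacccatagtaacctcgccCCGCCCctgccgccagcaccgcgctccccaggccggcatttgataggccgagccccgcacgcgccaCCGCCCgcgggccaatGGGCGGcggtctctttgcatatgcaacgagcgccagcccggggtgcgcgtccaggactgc
Ppara: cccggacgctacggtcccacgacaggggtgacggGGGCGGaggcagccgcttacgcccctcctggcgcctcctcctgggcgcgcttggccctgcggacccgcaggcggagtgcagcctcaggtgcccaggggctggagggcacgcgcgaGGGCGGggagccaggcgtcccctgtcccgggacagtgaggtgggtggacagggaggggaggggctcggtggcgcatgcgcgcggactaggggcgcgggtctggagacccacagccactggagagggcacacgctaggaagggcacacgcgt
Hadhb: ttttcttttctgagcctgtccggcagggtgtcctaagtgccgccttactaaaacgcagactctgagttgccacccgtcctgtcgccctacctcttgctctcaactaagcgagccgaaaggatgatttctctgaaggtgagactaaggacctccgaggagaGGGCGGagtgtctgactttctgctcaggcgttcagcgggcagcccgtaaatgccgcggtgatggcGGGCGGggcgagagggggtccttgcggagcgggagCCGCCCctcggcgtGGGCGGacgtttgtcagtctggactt
Fabp7: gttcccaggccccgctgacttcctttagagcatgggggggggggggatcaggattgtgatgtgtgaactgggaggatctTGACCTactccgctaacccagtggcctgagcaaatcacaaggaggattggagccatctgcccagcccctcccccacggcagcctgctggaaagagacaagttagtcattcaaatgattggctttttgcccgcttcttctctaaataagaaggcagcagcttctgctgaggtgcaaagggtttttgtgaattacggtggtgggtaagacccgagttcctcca

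Of the 34 members, 28 matched the RefSeq promoter table, with 32 windows between them; Acaa2, Hsd17b4, Acat1, Crat, Decr1 and Fabp5 had no entry. The GC box was in 25 of the 32 windows, on either strand, against 35.7% of 32851 windows of the same length, and the median GC content was 60.5% against 52.7%. The half-site stood in 7 of 32 windows, those of Acadm, Acadvl, Acsl6, Cpt1a, Cpt1c, Echs1 and Fabp7, against 16.3% of all. The DR1 element, a direct repeat of the half-site with 1 base between its copies, was in 0 of 32 against 0.0396%, and TATAAA in 0 of 32 against 13.6%. A match of letters is a description only.

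Each value is a sum of counts within 1 letter, over all cells of a type or of a sort (at least 3 cells), so that the letter and not the cell is the replicate. Levels are CPM, counts scaled to a common library total, with TMM factors where a test is given. In such sums, fewer cells with a transcript and less RNA per cell cannot be told apart. The cells held 3771 to 1842234 counts (median 160621), with median depth per letter from 120498 in pD to 1000343 in pB, and libraries of pA, pB and pE were deeper than those of pC, pD and pF. Types checked against markers carried them: astrocyte markers summed to 18937 to 56094 CPM in WT qNSC1 and 99.1 to 945 in neuroblasts, and neuroblast markers to 10.5 to 114 and 2262 to 8014. In letter pD the qNSC1 sum had the lowest astrocyte markers and the neuroblast sum the lowest neuroblast markers of their types. Microglia markers stayed at or under 10.9 CPM in every WT sum. Labelled types may have been named from these transcriptomes, so p-values between them are descriptive.

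Levels per kilobase of exon ranked the members within a type. In WT qNSC1, the first of a pair of labels for quiescent NSCs, Acsl3 stood first at 365 CPM per kb, followed by Etfb at 171, Acsl6 at 136, Fabp7 at 135, Acaa2 at 117 and Acadl at 114. Ppara lay at 7.59, and Acox3, Ppard, Acsl5 and Acsl1 were lowest, at 2.88 to 0.521. Neuroblasts had another order, led by Fabp5 at 125, Fabp7 at 67.5 and Etfb at 52.9, with Acsl3 at 7.84 CPM per kb and Acsl6 at 2.91. Acsl3 lies on chromosome 1 from 78657825 to 78707743, and reads there could be shared with Utp14b, which it overlaps on the same strand. Acadl, Hadhb, Decr1, Etfb, Etfdh and Hsd17b4 also overlap a same-strand gene. On the opposite strand, protein-coding genes overlap Acsl5, Crat, Acadvl, Hadha, Echs1 and Acaa1a. Sharing of reads was not tested for any of these.

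**Figure D1:**
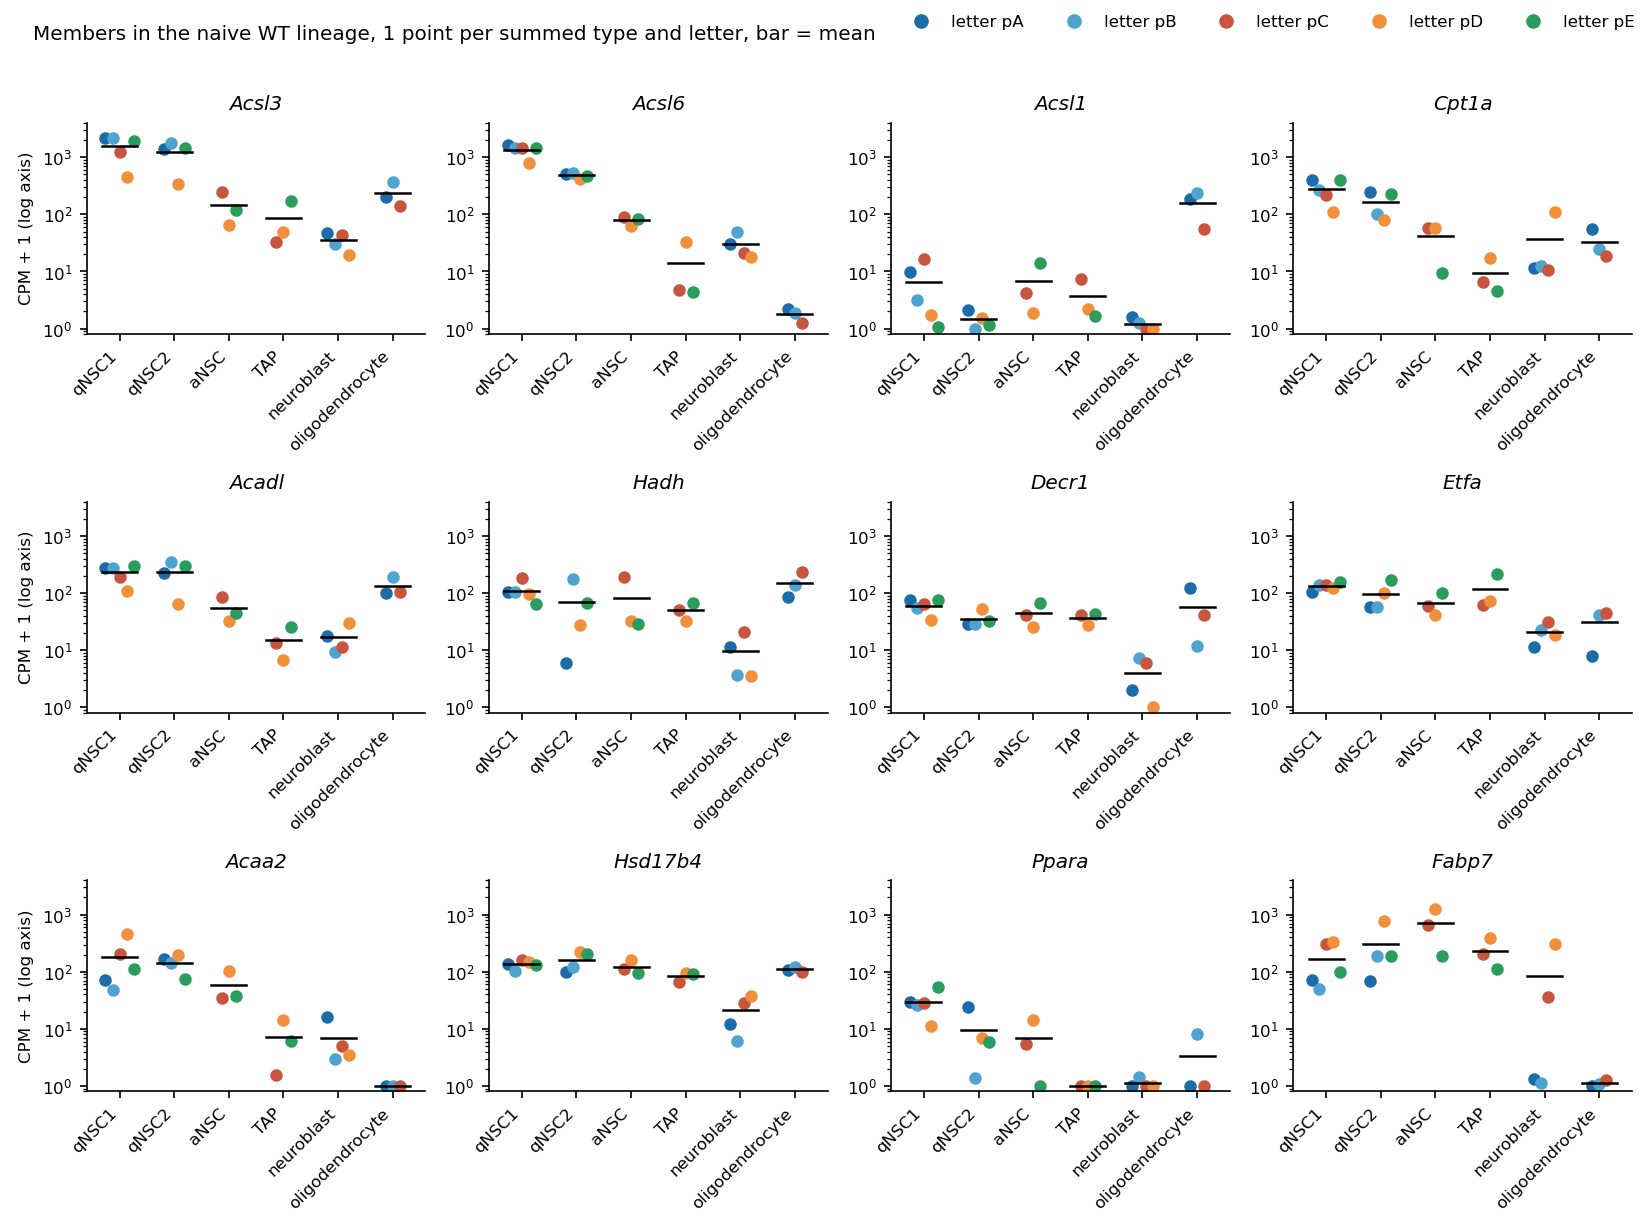
CPM plus 1 (log axis) of 12 members in the WT types qNSC1, qNSC2, aNSC, TAP, neuroblast and oligodendrocyte. Each point is the sum of 1 letter and each bar the mean. Acsl3 and Acsl6 are lower in each aNSC, TAP and neuroblast sum than in any qNSC1 sum, with Acsl6 lower in 2 of the TAP sums than in any neuroblast sum, Acsl1 is high in oligodendrocytes only among the types drawn, and Fabp7 is highest in 1 of the aNSC sums, at 1281 CPM.

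The question along the WT lineage was how these genes differ from quiescent stem cells to neuroblasts, their migrating neuronal progeny. Neuroblasts held less transcript than qNSC1 for 14 of the 34 members and more for none. All 34 passed the filter on low counts in each fit. The synthetases Acsl3 and Acsl6, the gateway gene Cpt1a, 6 of 9 mitochondrial enzymes and the receptor Ppara were among the 14. Acat1, Cpt1c, Fabp5, Hadha, Echs1 and Etfdh were not. By edgeR's quasi-likelihood test with Benjamini-Hochberg adjustment over 14915 genes (threshold 0.05), 7.7% of all genes were lower and 12.4% changed either way. The members' median log2 fold change was -2.52 against -0.17 over all genes.

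Acsl3, which activates long-chain fatty acids on the endoplasmic reticulum and lipid droplets, read 2160.2, 2212, 1215, 444 and 1918 CPM in qNSC1 of pA to pE. In neuroblasts of pA to pD it read 46.8, 29.1, 42.3 and 18.4 CPM. The groups did not overlap, although qNSC1 of pD lay well under the other letters (1590.0 ± 754 SD, n = 5, against 34.1 ± 12.9, n = 4; log2 fold change of -5.53 ± 0.78 SE with an edgeR adjusted p of 0.000103; lower in 4 of 4 shared letters). Acsl6, the synthetase that favours docosahexaenoic acid in brain, read 1630.4, 1455, 1437, 789 and 1443 CPM in qNSC1 and 29.2, 49.1, 19.9 and 17.2 in neuroblasts. Here too every qNSC1 letter was above every neuroblast letter (log2 fold change of -5.54 ± 0.72 SE with an edgeR adjusted p of 5.87e-05; lower in 4 of 4 shared letters). Acsl1, the main synthetase of fat and heart, was scarce in both, at 0.0568 to 15.8 CPM against 0 to 0.59 (adjusted p = 0.0512, and 0.0412 with the letter as a block). Acsl5 did not pass the test (6.42 ± 4.51 CPM in qNSC1, SD, n = 5).

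In the carnitine shuttle 1 of 5 genes was called. Cpt1a, the rate-limiting transferase of the outer membrane, read 393, 269.9, 218, 108 and 393 CPM in qNSC1 and 10.5, 11.5, 9.74 and 111 in neuroblasts. The ranges overlapped through the neuroblasts of pD, where 1 of 7 cells held 98.9% of the counts (log2 fold change of -3.00 ± 0.84 SE with an edgeR adjusted p of 0.0221; lower in 3 of 4 shared letters). Cpt1c, the brain paralogue with little transferase activity, lay at 47.6 to 126 CPM in qNSC1 and 78.2 to 182 in neuroblasts, overlapping ranges (log2 fold change 0.63, edgeR adjusted p = 0.452). Cpt2, Slc25a20 and Crat, the inner-membrane transferase, the carrier and the acetyltransferase, had log2 fold changes of -3.72, -0.95 and -2.94 and did not pass.

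Mitochondrial beta-oxidation had the most called members, 6 of 9. Acadl, a long-chain acyl-CoA dehydrogenase, read 273, 273, 191, 109 and 300.3 CPM in qNSC1 and 16.8, 8.41, 10.6 and 29.5 in neuroblasts. No letter of the latter reached the lowest of the former (log2 fold change of -3.84 ± 0.66 SE with an edgeR adjusted p of 0.000549; lower in 4 of 4 shared letters). Acaa2, the thiolase of the last step, read 69.3, 46.9, 204, 455 and 112 CPM against 15.1, 1.97, 4.02 and 2.46. It was more variable in qNSC1, being highest in pD, and still did not overlap (log2 fold change of -4.86 ± 0.96 SE with an edgeR adjusted p of 0.0023; lower in 4 of 4 shared letters). Hadh, which handles short and medium chains, read 104, 102, 185, 93.4 and 62.2 CPM against 10.6, 2.72, 19.7 and 2.46 (log2 fold change of -3.59 ± 0.91 SE with an edgeR adjusted p of 0.0119; lower in 4 of 4 shared letters). The medium-chain dehydrogenase Acadm (73.0 to 152 CPM against 3.68 to 35.3; log2 fold change of -2.62 ± 0.68 SE with an edgeR adjusted p of 0.0138) and Hadhb, the beta subunit of the trifunctional protein (126 to 510.3 against 23.3 to 76.0; log2 fold change of -2.46 ± 0.63 SE with an edgeR adjusted p of 0.0118), were lower as well. Acadvl, the very long-chain dehydrogenase, passed narrowly with overlapping ranges (52.1 to 165 CPM against 15.4 to 54.0; log2 fold change of -1.93 ± 0.62 SE with an edgeR adjusted p of 0.045). Hadha, the other trifunctional subunit with a start beside that of Hadhb, had a log2 fold change of -0.90 (adjusted p = 0.263). Acads and Echs1, the short-chain dehydrogenase and hydratase, had -0.11 and -0.81 and did not pass.

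Of the auxiliary and electron transfer genes 3 of 6 were called. Decr1, the reductase needed for chains with double bonds, read 74.4, 53.2, 62.4, 32.3 and 73.2 CPM in qNSC1 and 0.984, 6.32, 4.87 and 0 in neuroblasts, with no overlap (log2 fold change of -4.17 ± 0.85 SE with an edgeR adjusted p of 0.00231; lower in 4 of 4 shared letters). Etfa, a subunit of the electron transfer flavoprotein, read 104, 139, 135, 121 and 152 CPM against 10.3, 21.3, 29.8 and 17.2, one of the tightest sets of qNSC1 values (log2 fold change of -2.73 ± 0.62 SE with an edgeR adjusted p of 0.00581; lower in 4 of 4 shared letters). The isomerase Eci1 was lower too (94.0 to 453 CPM against 8.84 to 46.7; log2 fold change of -3.29 ± 0.89 SE with an edgeR adjusted p of 0.0183). Etfb, the partner subunit of Etfa, gave adjusted p = 0.198 (0.00161 with the letter as a block). Among peroxisomal genes Hsd17b4, the multifunctional enzyme for branched and very long chains, read 135, 102, 161, 148 and 130.2 CPM against 11.2, 5.17, 26.9 and 36.8 (log2 fold change of -2.78 ± 0.54 SE with an edgeR adjusted p of 0.00171; lower in 4 of 4 shared letters). Acaa1a, the peroxisomal thiolase, passed only with the block (0.107 without it, 0.00163 with it), and Acox3 and Ehhadh did not pass.

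Both ketone and acetoacetyl-CoA genes missed the threshold. Bdh1, which interconverts the ketone bodies beta-hydroxybutyrate and acetoacetate, lay at 43.5 to 127 CPM in qNSC1 and 5.31 to 18.1 in neuroblasts, without overlap (log2 fold change -2.86, adjusted p = 0.0505, and 0.038 with the block). Acat1, the acetoacetyl-CoA thiolase, differed by less than its spread (117 to 199.9 CPM against 129 to 206; log2 fold change -0.02). Ppara was a low transcript, at 29.0, 24.8, 27.3, 10.3 and 54.1 CPM in qNSC1, and it had counts in 1 of 4 neuroblast sums, at 0.434 CPM in pB. In pB 1 cell held all 11 counts. The qNSC1 mean was 109.6 times the level of the counts pooled over the neuroblast letters (edgeR adjusted p = 0.0209, lower in 4 of 4 shared letters). Ppard, its more widespread relative, did not pass (log2 fold change -2.59, adjusted p = 0.125).

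The fatty acid binding proteins, which carry fatty acids through the cytosol, did not pass. Fabp5 lay at 153 to 739 CPM in qNSC1 and 157 to 989 in neuroblasts. Fabp7, the brain form found in radial glia, read 70.0, 49.0, 302, 326 and 97.2 CPM in qNSC1 and 0.328, 0.118, 34.9 and 302 in neuroblasts. It was near 0 in the deeper letters pA and pB and high in pD, so the neuroblast letters spread more widely than the types differ (adjusted p = 0.667, and 0.0426 with the block). With the letter as a block 19 members were lower, the 14 plus Acsl1, Etfb, Acaa1a, Bdh1 and Fabp7. Without pA or without pC 8 remained, the same in each case: Acsl3, Acsl6, Acadl, Hadh, Decr1, Etfa, Acaa2 and Hsd17b4. Within the libraries of pA, pB and pE alone 9 were called and within pC and pD alone 3, namely Acsl3, Acsl6 and Acaa2.

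Single steps along the lineage gave no called member, and few genes of any kind were called there. From qNSC1 to qNSC2, the other quiescent label, 0 of 34 passed and 0.0805% of all genes did, with 2 members at an unadjusted p under 0.05. Counts at an unadjusted p, here and below, have no share of all genes beside them unless one is stated. They are therefore not read as an excess of members. Acsl6 read 515, 539, 421 and 473 CPM in qNSC2, below each qNSC1 letter (log2 fold change -1.47, edgeR adjusted p = 0.419). Acsl3 read 1381, 1801, 337 and 1457 there, overlapping qNSC1.

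From qNSC2 to activated NSCs (aNSC), edgeR called 0 members and 0.194% of all genes, with 7 members at an unadjusted p under 0.05; DESeq2 called 4 (Acsl3, Acsl6, Acadl and Ehhadh). Acsl3 stood at 249, 64.7 and 118 CPM in aNSC of pC, pD and pE, and all 3 were below the qNSC2 letters (log2 fold change of -3.11 ± 0.79 SE with an edgeR adjusted p of 0.102, and 0.0151 with the letter as a block, where it was called). Acsl6 stood at 88.0, 62.4 and 83.2 CPM, again without overlap (log2 fold change of -2.64 ± 0.71 SE with an edgeR adjusted p of 0.119). Ehhadh, the peroxisomal bifunctional enzyme, was at 0 in all 3 aNSC and all 3 transit-amplifying progenitor (TAP) sums. In the naive cells of pJ and pM described further on, it read 0 and 62.7 CPM in aNSC, the second value above both qNSC2 sums of those letters (30.8 and 33.9), and 0 in both TAP sums. Without pD, whose sums are the largest by cells, 2 members were called, Acsl3 and Acsl6. Within pA, pB and pE alone aNSC is the sum of pE only, with 3 cells, so no count is given there.

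Between TAPs, the dividing progenitors, and aNSC, edgeR called 0 members and 0% of all genes, with 5 members and 937 genes at an unadjusted p under 0.05; DESeq2 called 1 member, Acsl6. Acsl6 read 3.79, 31.8 and 3.35 CPM in TAPs, each below the lowest aNSC value (edgeR adjusted p = 0.478). It was called without pD. Within pA, pB and pE alone both types are the sums of pE only, with 3 cells each, so no call is given there. Ppara was at 0 in the 3 TAP sums and at 4.46, 13.4 and 0 CPM in the 3 aNSC sums. From TAP to neuroblast 0 members passed and 0.0939% of genes did, with 9 members at an unadjusted p under 0.05; DESeq2 called 3, Decr1, Etfa and Hsd17b4. Decr1 read 40.1, 26.5 and 41.4 CPM in TAPs, Etfa 61.8, 71.0 and 212, Hadh 49.3, 31.1 and 67.0 and Hsd17b4 63.9, 93.8 and 90.4. Those values all lie above each neuroblast letter of the same gene (log2 fold changes -3.45, -2.55, -2.44 and -2.08; adjusted p from 0.18 upward). With the neuroblast sum of pD left out, an alternative chosen after seeing the data because its neuroblast markers were low, Hsd17b4 was called lower. Without pD altogether Acsl6 was called higher in neuroblasts, where the other 3 letters ran from 19.9 to 49.1 CPM. Within pA, pB and pE alone, where TAP is the 1 sum of pE, no count is given.

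Oligodendrocytes, the myelin-forming glia, differed from qNSC1 in 7 members, 1 higher and 6 lower. Over all genes 4.39% were higher and 6.58% lower by edgeR. Acsl1 was the member that rose, at 185, 235 and 55.0 CPM in pA, pB and pC against 8.65, 2.10, 15.8, 0.698 and 0.0568 in qNSC1 of pA to pE (log2 fold change of 4.88 ± 1.28 SE with an edgeR adjusted p of 0.0138; higher in 3 of 3 shared letters). Acsl6 nearly vanished, at 1.21, 0.842 and 0.27 CPM (log2 fold change of -10.70 ± 1.04 SE with an edgeR adjusted p of 9.08e-07; lower in 3 of 3 shared letters). Acsl1 and Acsl6 thus went in opposite directions in each shared letter.

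Acaa2 had 0 counts in the 3 oligodendrocyte sums, at least 2253-fold lower than in qNSC1 when set against 3 counts over the group (adjusted p = 4.09e-05; lower in 3 of 3 shared letters). Fabp7 had 3 counts in all, a ratio of 2143 with a counting interval of 733 to 10391 (adjusted p = 0.0037; lower in 3 of 3 shared letters). Acsl3 was intermediate at 197, 374 and 137 CPM (log2 fold change of -2.75 ± 0.76 SE with an edgeR adjusted p of 0.0192). Cpt1a (55.4, 23.8 and 17.8 CPM; log2 fold change of -3.10 ± 0.95 SE with an edgeR adjusted p of 0.0367) and Etfa (7.04, 39.6 and 43.1; log2 fold change of -2.12 ± 0.68 SE with an edgeR adjusted p of 0.0455) were lower, in 3 of 3 shared letters each. By contrast Hadh (84.5, 135 and 230.3 CPM), Acadl (101, 187 and 105) and Hsd17b4 (108, 120.3 and 100.0) did not pass. Hadh of pC lay above the qNSC1 range (62.2 to 185), while Acadl (109 to 300.3 in qNSC1) and Hsd17b4 (102 to 161) lay within the range or close under it. The members' median was -1.01 against -0.24 for all genes. Leaving out pA, pB or pC left 3 called each time, Acsl6 and Acaa2 always among them, with Fabp7 without pA or pB and Acsl1 without pC. Within pC and pD alone oligodendrocytes are the sum of pC only, so no count is given there.

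Surface sorts do not rest on the transcriptome, although they hold most of the same cells. In the sort named NB, 11 members were lower than in the sort named NSC (pA, pB and pC), where 8.16% of 14348 genes were lower; none was higher. Acsl3 read 1659, 1090.4 and 1071 CPM in the NSC sort and 51.4, 23.8 and 41.8 in the NB sort. Acadl read 234, 170.2 and 206 and 18.8, 2.73 and 12.8 CPM (log2 fold change of -4.15 ± 0.72 SE with an edgeR adjusted p of 0.00286), and Cpt1a 391, 125 and 191 and 10.9, 14.5 and 11.2 (log2 fold change of -4.27 ± 0.76 SE with an edgeR adjusted p of 0.00348). All 11 were lower in 3 of 3 letters. Acsl1 read 25.6, 69.4 and 11.7 CPM against 0.661, 0.202 and 0.899 (log2 fold change of -6.01 ± 1.05 SE with an edgeR adjusted p of 0.00312), but oligodendrocyte markers summed to 8818 and 39438 CPM in the NSC sort of pA and pB. With oligodendrocyte-labelled cells left out, an alternative chosen after seeing the data, Acsl1 was not called and 13 members were.

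Ppara read 23.3, 13.3 and 22.6 CPM in the NSC sort and had 0 counts in the 3 NB sums, at least 238-fold lower (edgeR adjusted p = 0.0206). Also called were Acsl6, Acadm, Hadh, Eci1, Acaa2 and Hsd17b4, with log2 fold changes from -4.91 (Acsl6) to -1.89 (Acadm). The members' median was -1.98 against -0.02 over all genes. With the letter as a block 16 were lower, adding Hadhb, Etfa, Etfb, Acaa1a and Fabp7. Without pA 5 were called and without pB 3, namely Acsl3, Acsl6 and Acadl.

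In the OLIGO sort 5 members were lower than in the NSC sort and none higher, where 5.86% of all genes were lower. They were Acsl3 (log2 fold change of -2.44 ± 0.64 SE with an edgeR adjusted p of 0.0416), Acsl6, Cpt1a (log2 fold change of -2.78 ± 0.71 SE with an edgeR adjusted p of 0.0356), Acaa2 and Fabp7, each lower in 3 of 3 letters. Acsl6 read 1.38, 0.445 and 0.275 CPM in the OLIGO sort and 1355, 601 and 1216 in the NSC sort. Acaa2 had 0 counts in the OLIGO sort, at least 994-fold lower, and Fabp7 3 counts. Acsl1 read 177, 229.8 and 56.0 CPM in the OLIGO sort and was called higher once the oligodendrocyte-labelled cells of the NSC sort were left out. Without pA or without pB only Acsl6 and Acaa2 of the 5 passed, and without pC these and Fabp7. Between the ASTRO and NSC sorts edgeR called 0 members and 0.0906% of genes, with 1 member, Acsl1, at an unadjusted p under 0.05; no other tool called one. Neuroblast markers summed to 518 to 2481 CPM in that ASTRO sort, and their part in the comparison was not tested.

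**Figure D2:**
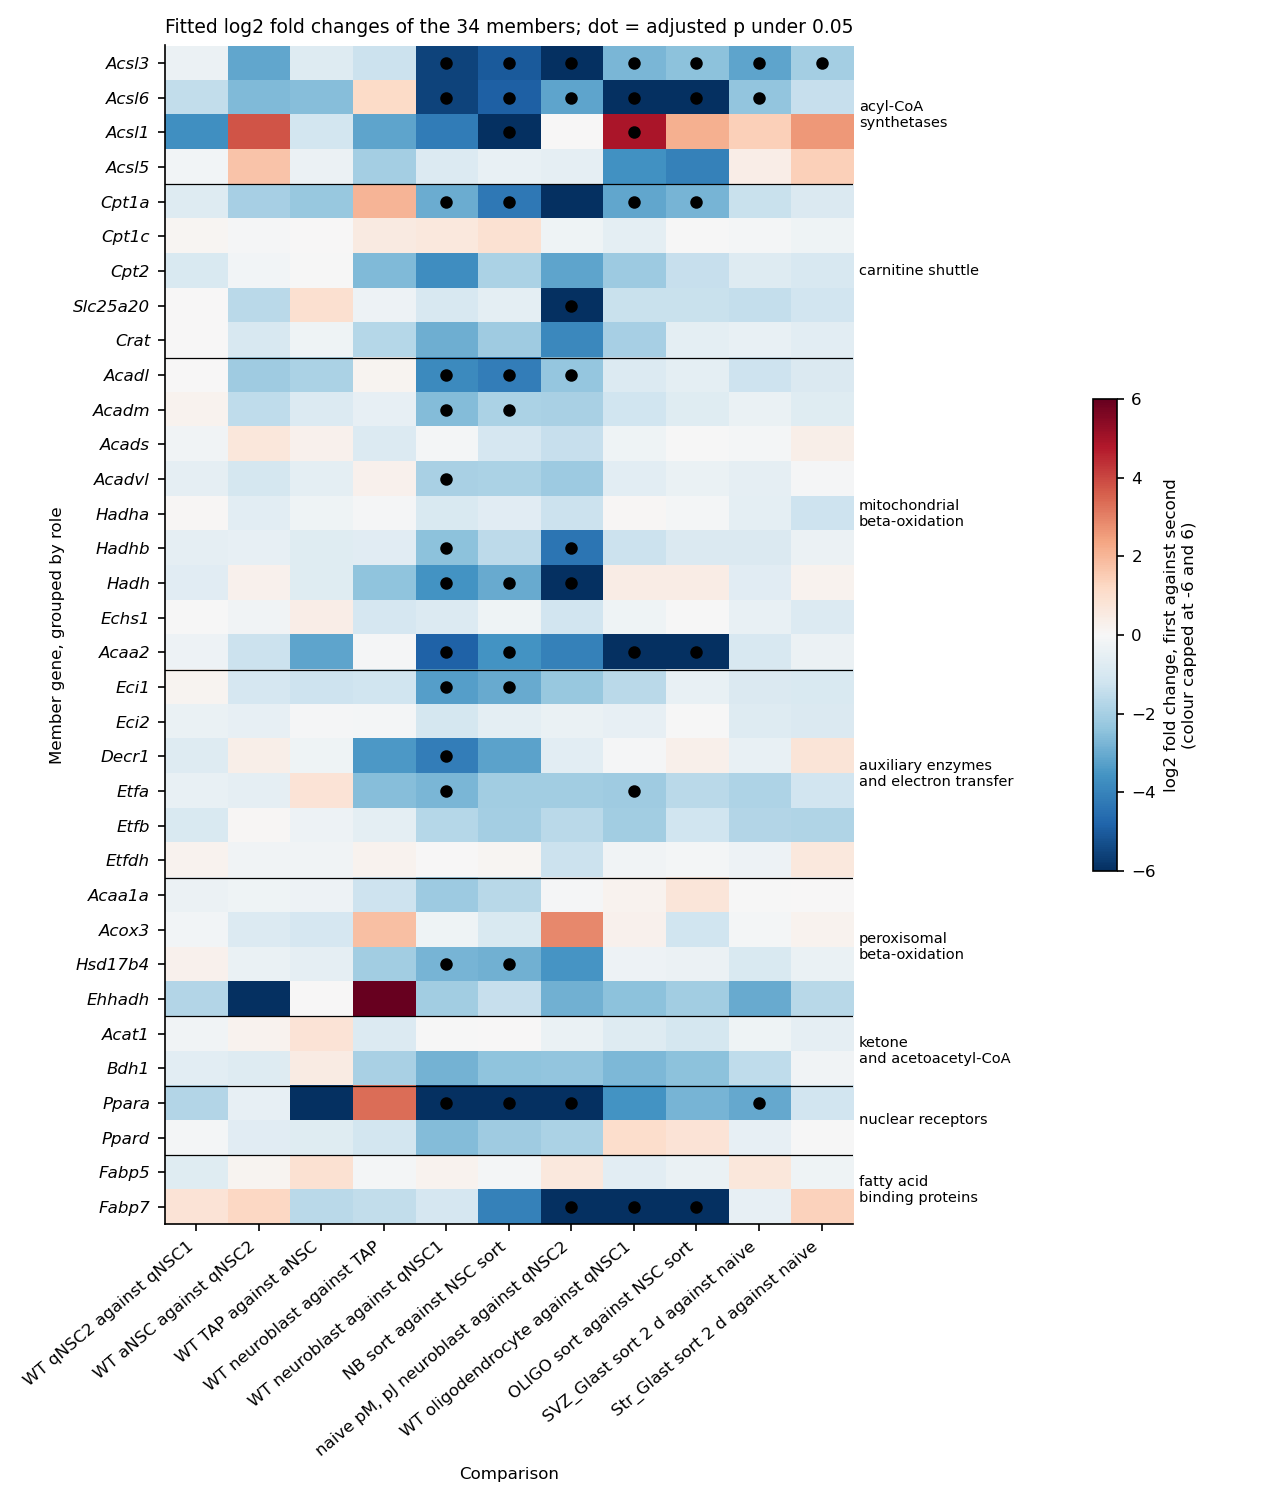
Fitted log2 fold change (first group against second) of the 34 members, in rows by role, in 11 tested comparisons, in columns; colour is capped at -6 and 6 and a dot marks an edgeR adjusted p under 0.05. Neuroblast comparisons are blue for most rows, the single WT steps have no dot, and Acsl1 carries the one red dot, in oligodendrocytes. Fitted values of genes at 0 in a group are no bound on the fold.

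A separate library set, naive cells of pM (TiCY) and pJ (IFN(A/G)R KO) held several of the same types, with 2 letters each. Because each letter is 1 genotype, letter and genotype cannot be told apart here. Neuroblasts held less of 8 members than qNSC2 and more of none, where 8.6% of 16009 genes were lower. All 8 were lower in 2 of 2 letters. Medians were -2.13 for the members and -0.86 for all genes.

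Acsl3 read 1445 and 2422 CPM in qNSC2 of pJ and pM and 0.503 and 43.5 in neuroblasts, where the letters themselves differed widely (log2 fold change of -6.45 ± 1.35 SE with an edgeR adjusted p of 0.00924). Acsl6 read 305 and 332 against 25.2 and 45.6 CPM (log2 fold change of -3.17 ± 0.49 SE with an edgeR adjusted p of 0.00135). Slc25a20, the carnitine-acylcarnitine carrier, read 109 and 56.3 against 0.503 and 0.418 CPM, a ratio of 158 with a counting interval of 43.7 to 1302 (edgeR adjusted p = 0.00183). The carrier was not called between WT neuroblasts and qNSC1; the difference between the library sets was not tested. Hadh had 0 counts in both neuroblast sums and 63.6 and 65.3 CPM in qNSC2, at least 82.1-fold lower (edgeR adjusted p = 0.00215), and Hadhb read 0 and 6.69 against 83.6 and 61.2 CPM (edgeR adjusted p = 0.0363). Fabp7 had 0 counts in neuroblasts and 340.1 and 610.0 CPM in qNSC2, at least 605-fold lower (edgeR adjusted p = 9.24e-05). Ppara read 0 and 0.837 against 68.2 and 118 CPM (edgeR adjusted p = 0.0279), and Acadl 69.4 and 28.4 against 250.2 and 236 (log2 fold change of -2.31 ± 0.66 SE with an edgeR adjusted p of 0.0431). These neuroblast sums were thin, with 3 counts over both letters equal to 0.785 CPM.

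Earlier steps of this set had no called member. From qNSC2 to aNSC edgeR called 0 members and 0.05% of genes; DESeq2 called 1, Acadl, at 45.1 and 35.8 CPM in aNSC against 250.2 and 236 (edgeR adjusted p = 0.208). Between qNSC2 and vSVZ astrocytes edgeR called 0 members and 0.0125% of genes; DESeq2 called 1, Acsl6, at 305 and 332 CPM in qNSC2 and 1367 and 1077 in astrocytes (edgeR adjusted p = 0.581). In both letters Acsl6 was lower in qNSC2.

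Astrocytes of the striatum and vSVZ, compared over the same 2 letters, showed no called member, and edgeR called 0% of 16009 genes, with 0 members and 141 genes at an unadjusted p under 0.05; DESeq2 called 0 members. Acsl3 read 2367 and 2508 CPM in striatal and 2258 and 2862 in vSVZ astrocytes of pJ and pM, Acsl6 1272 and 1037 and 1367 and 1077, and Ppara 134 and 207 and 163 and 225. Fabp7 read 118 and 66.9 in the striatum and 185 and 185 in the vSVZ, lower in both letters without passing (edgeR adjusted p = 1).

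Groups held by 1 letter each have no replicate check, and no p-value is given for them. Their levels are plain CPM of the summed counts with exact 95% Poisson intervals, which cover counting error only. A member is named where the intervals do not overlap and the log2 ratio of CPM, with 5 added to each, is at least 1 in size; genes needed 5 CPM in either group to be compared. In pL, cortical against striatal astrocytes of WT (TCF-Lef reporter) mice, 2 members passed that rule, both higher in cortex. Of all genes 24.8% passed it in either direction, a larger share than that of the members. Fabp7 went from 92.0 (84.1 to 101) to 252 (238 to 266) CPM and Acsl1 from 1.30 to 10.9 CPM between striatum and cortex. Acsl3 (1544 to 1148 CPM), Acsl6 (1279 to 903 CPM) and Ppara (111 to 121 CPM) did not.

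In pE, WT striatal astrocytes held less than qNSC1 of 6 members and more of 1, against 23.7% of genes past the rule in either direction. The share of members was thus near that of all genes. Etfa went from 146 (140.4 to 151) to 56.6 (52.0 to 61.5) CPM and Cpt1a from 376 (367 to 385) to 176 (168 to 184) CPM between qNSC1 and striatal astrocytes. Cpt2, Ehhadh, Bdh1 and Acadm were also lower, and Acsl1 higher, from 0.0544 to 8.98 CPM. In the olfactory bulb cells of pF, 55 cells labelled neuroblast/neuron (OB), Acsl3 stood at 36.6 CPM, Acsl6 at 24.2, Fabp7 at 115 and Fabp5 at 462. Both synthetases lay in the range of the WT vSVZ neuroblast sums above, which are on the TMM scale. Naive TiCY oligodendrocytes (13 cells, pM) against vSVZ astrocytes of the same letter showed the same directions as the WT contrast, with Acsl1 from 2.59 to 122 CPM and Acsl6, Ppara, Fabp7, Acaa2 and Cpt1a at 0. In all, 1 member was higher and 19 lower there, against 58.6% of genes past the rule, about the same share.

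After ischemia the question was how GLAST-sorted cells of the vSVZ (labelled SVZ_Glast) and the striatum (Str_Glast) changed at 2 d and 21 d. At 2 d, Acsl3, Acsl6 and Ppara fell in the vSVZ sort, and Acsl3 fell in the striatal sort. No member rose in either. The tested difference was taken over TiCY and knockout arms together with a genotype term, and 2% of 26196 genes were lower in the vSVZ sort and 0.523% in the striatal sort. Each arm is 1 letter, so 2 residual degrees of freedom remained and the spread came mostly from the trend over genes. The members' median was -0.64 in the vSVZ against 0.05 for all genes, and -0.46 in the striatum against 0.49. In the vSVZ 10 members were at an unadjusted p under 0.05 and 3 of 34 had a fold change above 0. The share of all genes at that unadjusted threshold is not given here, so the 10 are not read as an excess of members.

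In the vSVZ sort Acsl3 stood at 2061 CPM (2045 to 2078) in naive TiCY, 183 CPM (179 to 188) at 2 d and 926 CPM (914 to 939) at 21 d. In the knockout it stood at 1449 CPM naive and 227 at 2 d. Both 2 d arms were low and did not overlap the naive ones (log2 fold change of -3.16 ± 0.59 SE with an edgeR adjusted p of 0.000609). In the striatum it read 2177 CPM in naive TiCY, 264 at 2 d and 1185 at 21 d, and 2016 and 1049.6 in the knockout, naive and at 2 d. The striatal knockout value at 2 d lay between the naive levels and the TiCY level at 2 d (log2 fold change of -2.03 ± 0.59 SE with an edgeR adjusted p of 0.0363).

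Acsl6 in the vSVZ sort stood at 652 CPM (643 to 661) in naive TiCY, 74.7 CPM (71.8 to 77.6) at 2 d and 692 CPM (681 to 703) at 21 d. Knockout values were 749.5 CPM naive and 276 at 2 d, so both genotypes were low at 2 d and the 21 d level was near the naive one (log2 fold change of -2.36 ± 0.59 SE with an edgeR adjusted p of 0.0129). In the striatum the TiCY values were 899.6, 171 and 819.7 CPM and the knockout ones 1083 and 895. There TiCY was low at 2 d and the knockout close to its naive level, and the mean over genotypes did not pass (log2 fold change -1.37, adjusted p = 0.246).

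Ppara in the vSVZ sort stood at 148 CPM (144 to 153) in naive TiCY, 7.52 CPM (6.63 to 8.49) at 2 d and 90.4 CPM (86.6 to 94.3) at 21 d, and at 95.4 and 29.4 CPM in the knockout, naive and at 2 d (log2 fold change of -3.07 ± 0.64 SE with an edgeR adjusted p of 0.00235). The receptor was lowest in the TiCY 2 d arm. Striatal values were 179.5, 57.4 and 214 CPM in TiCY and 114 and 78.3 in the knockout (adjusted p = 0.4). Etfa, the flavoprotein subunit, missed narrowly in the vSVZ (log2 fold change of -1.86 ± 0.56 SE with an edgeR adjusted p of 0.0543), at 227, 44.6 and 106 CPM in TiCY and 165 and 70.3 in the knockout.

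Marker levels moved with these values. In the vSVZ sort astrocyte markers (8 genes, none at 0 in any arm) summed to 27972 CPM in naive TiCY, 7558 at 2 d and 16877 at 21 d, while neuroblast markers (7 genes) went from 577 to 3658 at 2 d. In the knockout the sums were 23708 and 12008 for astrocyte markers and 593 and 2230.3 for neuroblast markers, naive and at 2 d. Cells with more counts of astrocyte markers than of neuroblast, activated NSC and TAP markers together made up 87.2% (164 of 188) of naive TiCY cells and 31.2% (55 of 176) at 2 d in the vSVZ, and most TiCY cells of 2 d carry no specific type label. With those cells alone, an alternative chosen after seeing the data, 2 members were called in the vSVZ, Acsl3 and Ppara, and 1 in the striatum, Acsl3. Of 25125 genes, 587 were called in either direction in the vSVZ and 686 in the striatum. The share of members called in the striatum was thus near that of all genes. Acsl3 in them read 2359 CPM in naive TiCY and 458 at 2 d in the vSVZ, and 1664 and 393 in the knockout. Whether the marker genes themselves differ after ischemia in astrocytes was not tested.

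In the striatal sort astrocyte markers summed to 35775 CPM in naive TiCY, 9621 at 2 d and 21335 at 21 d, and to 32388 and 23524 in the knockout. Endothelial markers went from 4.66 to 104 CPM and microglia markers from 4.97 to 37.3 in TiCY at 2 d. Their part in the results was not tested. Fitted region by region, 9 members were lower in the vSVZ (Acsl3, Acsl6, Cpt1a, Acadl, Etfa, Etfb, Ehhadh, Bdh1 and Ppara) and 0 in the striatum. The share of all genes called in those fits is not given here, so the 9 are not read as an excess of members. With cells weighted equally, 0 passed in either.

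**Figure D3:**
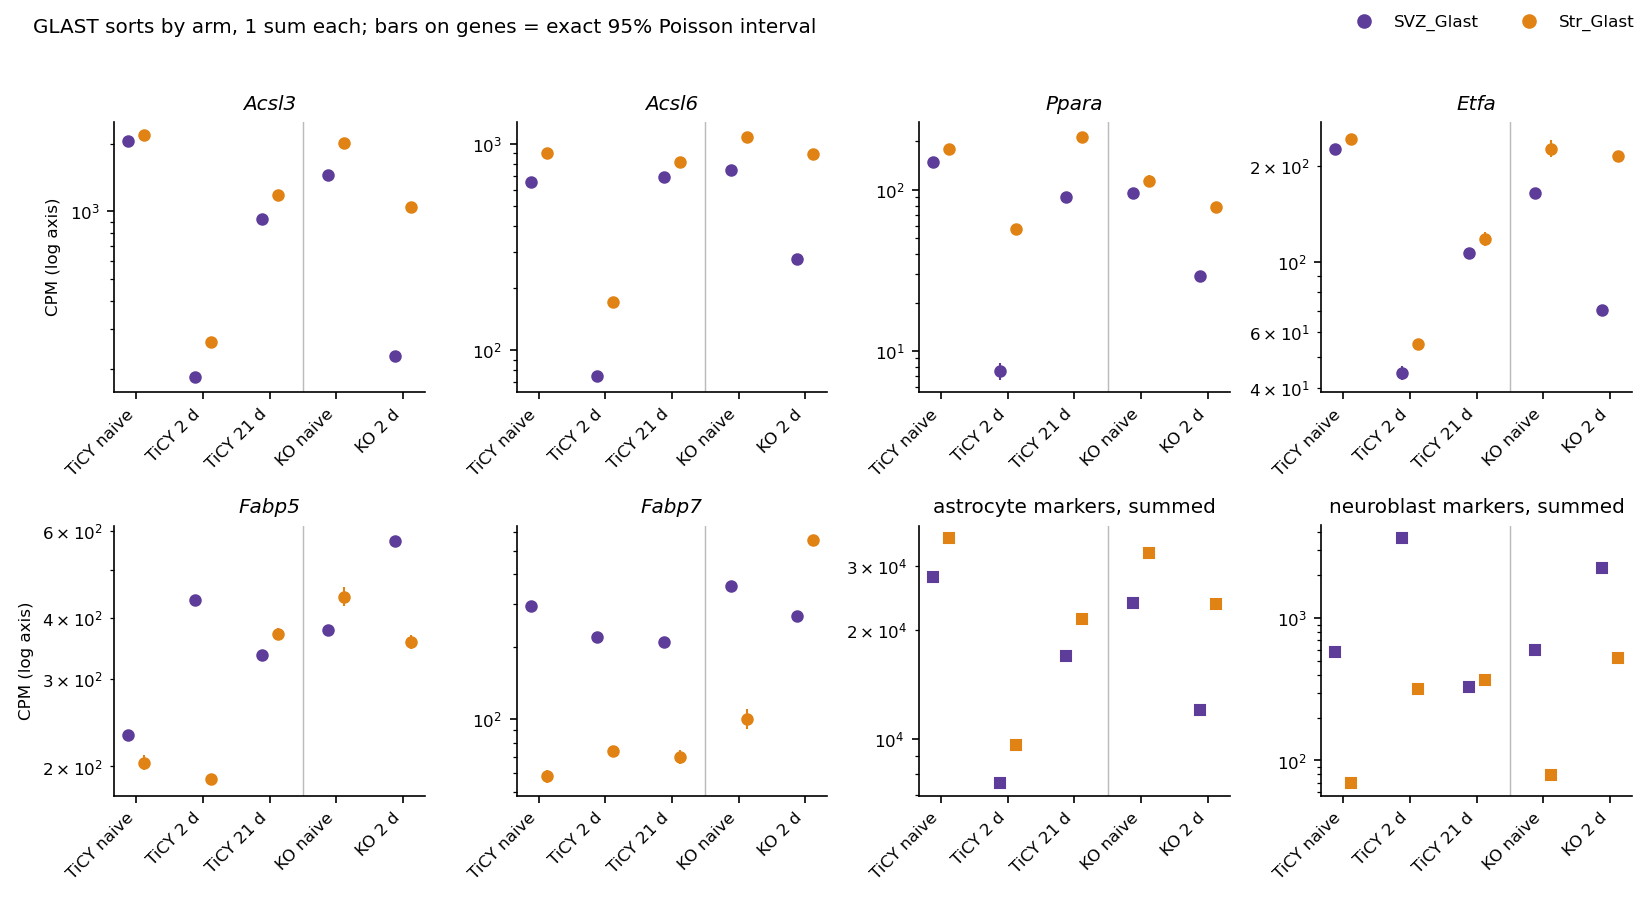
Plain CPM of Acsl3, Acsl6, Ppara, Etfa, Fabp5 and Fabp7, and summed CPM of astrocyte and neuroblast markers, in the SVZ_Glast and Str_Glast sorts of 5 arms, each 1 letter; KO stands for IFN(A/G)R KO and intervals are exact 95% Poisson. Acsl3, Acsl6 and Ppara are lowest in the TiCY 2 d arm of each region, and summed astrocyte markers are lowest in the same arm.

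In TiCY alone, more members were past the size rule. The vSVZ sort had 15 lower and 0 higher at 2 d, against 16.4% of genes lower, with a members' median of -0.88 against 0.08. Beyond the 3 above, Etfb went from 105 (101 to 109) to 10.4 (9.34 to 11.5) CPM, Cpt1a from 96.3 (92.7 to 99.9) to 18.6 (17.2 to 20.1) CPM and Ehhadh from 19.7 (18.1 to 21.4) to 1.88 (1.45 to 2.40) CPM. Etfa, Bdh1, Acadvl, Slc25a20, Eci1, Acadl, Acaa2, Eci2 and Hsd17b4 were lower too. In cells led by astrocyte markers, chosen after seeing the data, 7 of the 15 were lower (Acsl3, Acsl6, Cpt1a, Etfa, Etfb, Ehhadh and Ppara) and 2 members higher (Acsl1 and Acsl5), against 16.4% of genes lower and 18.1% higher. The share of members lower was near that of all genes in those cells, and the other 8 were short of the rule there. Of these, Hsd17b4 went from 202 to 170.3 CPM, Acaa2 from 136 to 105 and Bdh1 from 68.8 to 39.5. In all cells of the sort, levels of Cpt1c (84.6 to 78.0 CPM) and Ppard (46.1 to 46.1 CPM) were nearly the same. Fabp5 lay higher at 2 d in all cells, from 231 to 434 CPM (log2 ratio 0.89), short of the rule. In cells led by astrocyte markers Cpt1c went from 83.8 to 41.3 CPM, Ppard from 51.6 to 96.9 and Fabp5 from 219 to 226. All of these were short of the rule.

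The striatal TiCY sort had 16 members lower and 1 higher at 2 d, against 17.7% of genes lower and 25.5% higher. Etfb went from 115 to 20.2 CPM, Etfa from 244 to 54.9 CPM and Cpt1a from 117 to 36.1 CPM. Acsl5 was the one that lay higher, from 6.09 to 21.2 CPM. The same 16 were lower in striatal cells led by astrocyte markers, against 18.3% of genes; those cells were 95.1% of the sort at 2 d. Naive and 2 d TiCY cells are of different letters, pM and pI, so time and letter cannot be told apart, and pI was sequenced deeper (a median of 304367 counts per cell against 151508).

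At 21 d the TiCY vSVZ sort had 5 members lower and 2 higher than naive, against 16.7% of genes in either direction, and the same naive cells serve the 2 d comparison. Acsl3 was still past the rule (log2 ratio -1.15), as were Ehhadh (19.7 to 2.20 CPM), Etfa, Bdh1 and Cpt2. Acaa2 went up, from 122 (118 to 126) to 269.6 (263 to 276) CPM, and Crat, which buffers acetyl-CoA as acetylcarnitine, from 43.7 (41.3 to 46.2) to 109 (104 to 113) CPM. In the striatal sort 4 were lower and 0 higher, against 21.3%: Ehhadh (19.6 to 2.84 CPM), Acadvl (29.0 to 9.28 CPM), Slc25a20 (78.1 to 31.4 CPM) and Etfa (244 to 118 CPM). Ppara and Acsl6 at 21 d lay within a log2 ratio of 1 of naive in both regions. The share of members past the rule was near that of all genes in the vSVZ and below it in the striatum.

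In the knockout, naive and 2 d cells carry the same letter. Their genotype labels differ, IFN(A/G)R KO and TiCY-IFN(A/G)R KO, so time and genotype label cannot be told apart. The vSVZ sort had 6 members lower and 0 higher at 2 d (14.8% of genes lower): Acsl3, Ppara, Ehhadh, Acsl6, Etfa and Bdh1, with log2 ratios from -2.65 to -1.08. In cells led by astrocyte markers 2 of the 6 were lower, Acsl3 and Ehhadh, and Acsl1 and Acadvl were higher, against 14.7% of genes lower and 14.1% higher. Etfb, low in TiCY at 2 d, went from 127 to 126 CPM in all cells of the sort and from 132 to 169 in those led by astrocyte markers. The striatal sort had 2 lower, Slc25a20 and Etfb, and 4 higher, against 25.7% of genes higher. Fabp7 went from 100.4 (91.3 to 110.3) to 551 (537 to 565) CPM, Decr1 from 15.8 (12.3 to 19.9) to 95.4 (89.7 to 101) CPM, Etfdh, the oxidoreductase that takes electrons from the flavoprotein, from 17.1 to 65.2 CPM, and Hadh from 13.5 to 40.7 CPM. The members' shares were below or near those of all genes in both the vSVZ and the striatum, and the naive knockout striatal sum held 35 cells.

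Side by side at 2 d, knockout cells lay above TiCY cells for 7 members and below for none in the vSVZ sort (8.95% of genes higher), and above for 18 and below for 2 in the striatal sort (20.1% higher). In the vSVZ these were Etfb, Acadvl, Acsl6, Cpt1a, Acaa2, Ppara and Eci1; in cells led by astrocyte markers these and Fabp5 were higher and Acsl5 and Ppard lower (11.4% and 14.4% of genes). In the striatum Fabp7 (74.3 to 551 CPM, TiCY to knockout), Acsl6, Acsl3, Acadl (55.2 to 222 CPM) and Etfa led, and Ppard (117 to 33.6 CPM) and Acsl5 were the lower ones. Striatal astrocyte markers were higher in the knockout in the same way (9621 to 23524 CPM). In striatal cells led by astrocyte markers 19 members were higher and 2 lower, against 20.5% of genes higher and 21% lower. Those cells were 95.1% of the TiCY sort and 91.2% of the knockout sort at 2 d. Genotype and letter cannot be told apart here. Naive knockout and TiCY vSVZ astrocytes differed in 0 members by the size rule, against 18.1% of genes, and naive striatal astrocytes in 5 (Decr1, Etfdh and Hadh lower, Acox3 and Fabp5 higher), against 26%.

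**Figure D4:**
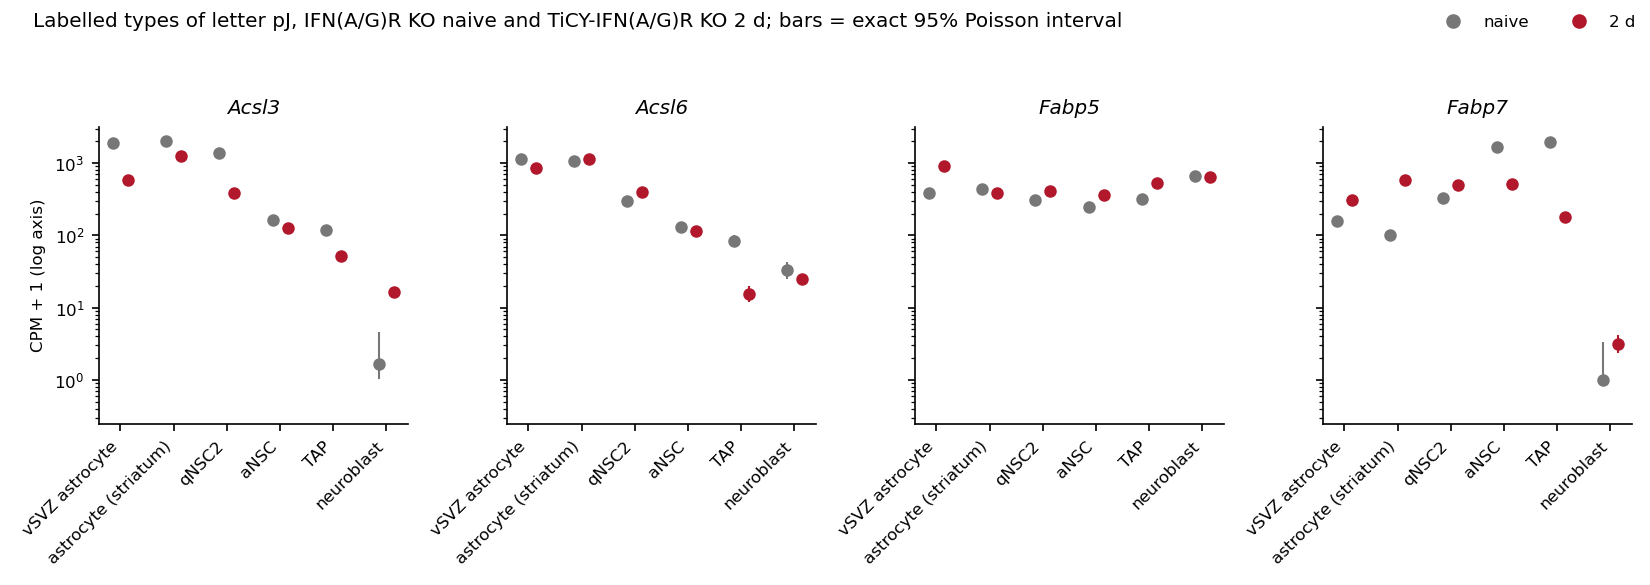
Plain CPM of Acsl3, Acsl6, Fabp5 and Fabp7 in the labelled types of letter pJ, naive IFN(A/G)R KO against TiCY-IFN(A/G)R KO 2 d after ischemia, with exact 95% Poisson intervals. Acsl3 is lower at 2 d in vSVZ astrocytes and qNSC2, Fabp7 is higher in striatal astrocytes and lower in aNSC and TAP, and Acsl6 of vSVZ astrocytes moves by less than the size rule.

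Labelled types of pJ show where in the knockout sorts these values sat. Here too, time and genotype label cannot be told apart. In vSVZ astrocytes 4 members were lower and 5 higher at 2 d, against 37.9% of genes in either direction. Acsl3 went from 1895 (1869.9 to 1919.6) to 582 (562 to 602) CPM, while Acsl6 went from 1147 to 845 CPM, short of the rule. Fabp5, the epidermal form that also supplies nuclear receptors, went from 385 (374 to 397) to 914 (889 to 939) CPM, Cpt1a from 91.3 to 188 CPM, Decr1 from 60.6 to 141 CPM and Acsl1 from 2.71 to 34.3 CPM. Within this type the enzymes therefore went both ways: Hadhb (90.0 to 38.0 CPM) and Etfa (182 to 82.8 CPM) were lower with Cpt1c, and Crat was the other higher one. The share of members past the rule was below that of all genes, here and in the striatal astrocytes and qNSC2 that follow.

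In striatal astrocytes of pJ 6 members were higher and 0 lower, against 20.9% of genes higher: Decr1 (15.8 to 112 CPM), Fabp7 (100.4 to 582 CPM), Bdh1 (58.9 to 127 CPM), Etfdh, Hadh and Acadvl. Acsl3 went from 2016 to 1238 CPM, short of the rule. In qNSC2, 4 were lower and 4 higher (40.4% of genes), among them Acsl3 (1391 to 381 CPM), Ehhadh (29.7 to 1.66 CPM), Slc25a20 (105 to 31.0 CPM) and Bdh1 (90.8 to 36.9 CPM) lower; Bdh1 thus went opposite ways in qNSC2 and striatal astrocytes, a difference that was not tested.

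Dividing and migrating types of pJ held few naive cells (7 aNSC, 9 TAP and 8 neuroblasts). Past the rule were 12 members in aNSC (8 higher), 10 in TAP (1 higher) and 13 in neuroblasts (10 higher), against 52%, 42.9% and 61.4% of genes. Fabp7 went from 1691 (1609 to 1777) to 517 (495 to 539.6) CPM in aNSC and from 1939 (1859.5 to 2021) to 177 (164 to 192) CPM in TAP. Ppara went from 0 to 55.1 CPM in aNSC. In each of these types the share of members past the rule was below that of all genes.

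Cells labelled neurogenic striatal astrocyte held less of 9 members and more of 1 than striatal astrocytes of the same 2 d knockout letter (27 against 82 cells; 19% of genes lower). Acsl6 went from 1138 (1114 to 1162) to 130.1 (117 to 145) CPM, Ppara from 106 (99.1 to 114) to 14.4 (10.2 to 19.7) CPM and Cpt1a from 155 (146 to 164) to 30.6 (24.3 to 38.1) CPM. Acsl3 (1238 to 555 CPM), Acox3, Decr1, Hadhb, Slc25a20 and Crat were lower as well, and Acat1 higher (82.6 to 193 CPM). The members' median log2 ratio was -0.77 against 0.14 over all genes.

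The difference between regions in the 2 d response was tested as an interaction. It called 0 members and 0.538% of genes; 1 member, Fabp7, had an unadjusted p of 0.0188 (log2 difference 1.86, striatum minus vSVZ, edgeR adjusted p = 0.671). The median was 0.47 for the members and 0.54 for all genes.

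Other genes of the pathway were followed as 3 lists: 35 further oxidation genes, 17 regulators and Ppar targets, and 12 genes of fatty acid synthesis. Mmut, of the first list, had no row. From qNSC1 to neuroblast, 12 of 33 oxidation genes tested, 2 of 14 regulators and 6 of 12 synthesis genes were lower by edgeR and none higher, against the 7.7% of all genes above. Acsbg1, a bubblegum acyl-CoA synthetase of astrocytes, went from 959.7 ± 179 CPM (SD, n = 5) to 6.86 ± 13.4 (n = 4; log2 fold change of -7.43 ± 1.69 SE with an edgeR adjusted p of 0.00549; lower in 4 of 4 shared letters). Pdk4, the kinase that turns pyruvate oxidation down, fell with a log2 fold change of -6.17 (edgeR adjusted p = 0.00789), the desaturase Scd1 with -4.94 (0.036) and the fatty acid transporter Slc27a1 with -4.21 (0.000288). Nudt7, Elovl5, Acad11 and Acss1 were among the largest of the others. Members of both the oxidation and the synthesis list were thus lower.

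In the NB sort 10 of 33 oxidation genes tested, 4 of 14 regulators and 7 of 12 synthesis genes were lower and none higher, against 8.16% of all genes lower, among them Acsbg1, Ppargc1a, Acacb, Thrsp, Angptl4, Acss1, Nudt7 and Scd1. Acacb lost its call with the letter as a block (adjusted p = 0.0604). In oligodendrocytes 1 oxidation gene (Acot7) was higher and 4 of 33, 3 of 14 and 1 of 12 genes of the 3 lists were lower, against 4.39% of all genes higher and 6.58% lower. Among the lower were Ppargc1a, the coactivator of Ppara, and Acacb, Acss1, Angptl4, Acsbg1 and Abcd2. The OLIGO sort had 4 of 33, 3 of 14 and 0 of 12 lower, against 5.86% of all genes, namely Angptl4, Ppargc1a, Acss1, Acsbg1, Abcd2, Slc27a1 and Ivd. In naive pM and pJ neuroblasts 8 of 33, 3 of 13 and 4 of 12 were lower, against 8.6% of all genes. Acot1, Thrsp, Acss2, Pdk4, Acad12, Ppargc1a and Acsbg1 were among the largest of these; Acad12 lost its call with the letter as a block (adjusted p = 0.053). No gene of the 3 lists passed between qNSC2 and qNSC1, at the aNSC, TAP and neuroblast steps in WT, between the ASTRO and NSC sorts or between striatal and vSVZ astrocytes.

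At 2 d after ischemia in the vSVZ sort 1 of 34 oxidation genes, 3 of 17 regulators and 0 of 12 synthesis genes were lower and none higher, against 2% of all genes lower, so that the share of oxidation genes was near the background. Ppargc1a (log2 fold change of -2.50 ± 0.57 SE with an edgeR adjusted p of 0.00604), Slc27a1 (log2 fold change of -2.04 ± 0.56 SE with an edgeR adjusted p of 0.0287), Acss1 (log2 fold change of -2.13 ± 0.54 SE with an edgeR adjusted p of 0.0143) and Angptl4, a secreted lipase inhibitor and classic Ppar target (log2 fold change of -4.94 ± 0.97 SE with an edgeR adjusted p of 0.0011), fell. In the striatal sort Slc22a5, the carnitine importer of the plasma membrane, rose (log2 fold change of 3.48 ± 0.64 SE with an edgeR adjusted p of 0.000168), with 25.4, 346 and 82.9 TMM-scaled CPM in the naive, 2 d and 21 d TiCY sums and 3.45 and 30.6 in the naive and 2 d knockout sums. Abcd2 (log2 fold change of -2.51 ± 0.64 SE with an edgeR adjusted p of 0.0122) and Phyh (log2 fold change of -2.22 ± 0.59 SE with an edgeR adjusted p of 0.0181), both of peroxisomal oxidation, fell. Angptl4 and Slc22a5 differed between regions in their 2 d response (log2 differences 7.23 and 3.65, striatum minus vSVZ; edgeR adjusted p = 0.000279 and 0.0182). Angptl4 read 32.4 and 125 TMM-scaled CPM in the striatal TiCY sort, naive and at 2 d, and 27.5 and 0.108 in the vSVZ.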

How the data were processed

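Raw counts per gene and cell are those the authors deposited; per the submitters' processing notes, reads were aligned with STAR and counted with featureCounts on GRCm38 (mm10), with versions not given in the sources used here. Members and lists were chosen with earlier results of these data known. Labels gave type, genotype, treatment and letter; 603 unlabelled rows and a second table of ischemia cells were not used. Counts were summed per type or sort and letter (at least 3 cells) and tested with edgeR 4.0.16 (R 4.3.3): TMM scaling, filterByExpr, the quasi-likelihood F test and Benjamini-Hochberg adjustment over all genes at 0.05. DESeq2 1.42.0, limma 3.58.1 on means of log CPM per cell, other filters and left-out letters were alternatives. The fitting code was tested on simulated data, with genes changed by known folds. Of genes changed 4-fold, 1.49% were recovered for neuroblast against qNSC1, 2.99% for the NB sort and 3.03% for naive neuroblasts. At 16-fold the shares were 50.7%, 41.8% and 26.9%. For the vSVZ sort at 2 d they were 17.9% at 4-fold and 82.1% at 16-fold. A member that was not called may therefore still differ.

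All 34 members were named, and of the other pathway lists at most the 8 largest called changes per comparison, plus genes in counts of 5 or fewer; 1 gene, and the list of ketone genes that holds it, are not reported here. Letters pair the sums: same-letter deviations correlated at 0.149 or more between WT qNSC2 and qNSC1. Where the labels do not say that letters are separate mice, p-values measure only the spread between these sums. Annotation of counting may differ between the first 6 letters (pA to pF) and the rest, so no test crosses them.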

Additional observations from a re-analysis of the deposited data

Results flagged for a closer look

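In WT groups of 4 or 5 letters, 15 of 102 member-by-group sets held 1 letter far from the others by Dixon's ratio. Its rate of about 1 in 20 sets holds for normally distributed values, which CPM need not be. The 15 are therefore not set against that rate. Letter pD held 11 of the 15, and 14 of the 15 were the highest value. In qNSC2 of pD, Acaa1a stood at 697 CPM (others 37.4 to 89.5), Crat at 303 (34.2 to 49.7), Eci1 at 584 (55.0 to 114) and Decr1 at 52.1 (27.6 to 30.9). In qNSC1 of pD, Crat stood at 342 CPM (18.3 to 79.1), Eci1 at 453 (94.0 to 149) and Acsl6 at 789, below the others (1437 to 1630.4). In neuroblasts of pD, Cpt1a stood at 111 CPM (9.74 to 11.5), Fabp7 at 302 (0.118 to 34.9), Acadvl at 54.0 (15.4 to 20.5) and Eci1 at 46.7 (8.84 to 13.8). Letter pA had Acaa2 at 15.1 CPM in neuroblasts (1.97 to 4.02) and Cpt2 at 53.6 in qNSC2 (0 to 2.44). Letter pB had Cpt2 at 7.22 CPM and Ppara at 0.434 in neuroblasts, with the other 3 letters at 0. In such a set the ratio flags any count in the remaining letter.

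Crat and Eci1 were thus high in pD in both quiescent types. Astrocyte markers in the qNSC1 sum of pD were the lowest of the 5 letters, and the part of that in these values was not tested.

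The response at 2 d after ischemia differed between regions for 2 other genes of the pathway by an interaction test, with log2 differences of 7.23 for Angptl4 and 3.65 for Slc22a5, striatum minus vSVZ. In knockout letter pJ, Bdh1 had a log2 ratio of 1.05 in striatal astrocytes and -1.19 in qNSC2 at 2 d against naive, with 1 sum each; this difference was not tested.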

How the results depend on the processing

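No fold change of a called member changed sign under any alternative run. Of these values 428 were kept, 113 lost their call and 15, without a test, moved by more than 1 SE of the main fit. Kept means still called, or within 1 SE where no test was run. A value without an adjusted p also counted as kept. Of the counts of called members, 114 stayed within 1.5 times and 39 did not. Counts under alternatives are mostly given without the share of all genes called in the same run. They are therefore not read as an excess of members. DESeq2 called 4 members for WT aNSC against qNSC2, 1 for TAP against aNSC and 3 for neuroblast against TAP (edgeR 0 each), 17 for the NB sort (edgeR 11), 15 for naive pM and pJ neuroblasts (edgeR 8), 1 each for naive qNSC2 against vSVZ astrocyte and aNSC against qNSC2 (edgeR 0), and 5 for the vSVZ sort at 2 d (edgeR 3). With cells weighted equally in limma the counts were 1 for aNSC against qNSC2, 19 for the NB sort, 8 for the OLIGO sort, 13 for naive neuroblasts and 0 for both GLAST sorts at 2 d. Leaving out 1 letter gave 0 to 2 for aNSC against qNSC2, 0 to 1 for TAP against aNSC and for neuroblast against TAP, 8 to 15 for neuroblast against qNSC1, 3 to 6 for oligodendrocyte against qNSC1, 3 to 9 for the NB sort and 2 to 3 for the OLIGO sort. For neuroblast against qNSC1 the count was 9 within pA, pB and pE and 3 within pC and pD. Where such a subset left a type with only 1 sum, no count is given. A fit of only the OLIGO and NSC sorts called 3, a fit of each region alone 9 in the vSVZ and 0 in the striatum, no filter 1 for naive aNSC, and the neuroblast sum of pD left out 1 for neuroblast against TAP.

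The replicate block, with the letter as a term, called 1 for aNSC against qNSC2, 19 for neuroblast against qNSC1, 16 for the NB sort and 9 for naive neuroblasts, and moved no other count by over 1.5 times. In naive pM and pJ, leaving out a letter leaves no replicate, so only its values were computed.

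Limits: each ischemia arm is 1 letter, the naive neuroblast sums are shallow, and 3 counts set the floor for genes at 0. By the size rule 61 counts stayed within 1.5 times under other settings and 19 did not; with 20 CPM added in place of 5 the 21 d counts were 3 in the vSVZ and 0 in the striatum.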
